A study of Mus musculus with 4 samples.

Results

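L1_Mur and L1_Rod elements are LINE-1 retrotransposon copies of mouse and rodent subfamilies, and the loci described here are those whose repeat name begins with L1_Mur or L1_Rod in the tables of uniquely mapped RNA-seq reads. There were 7536 such loci with a read in at least 1 library, of 145916 LINE loci in all, and 20022 of 359255 when the tables of flanking intervals were included. RNA was compared between WT and Lsh-/- cells in 2 settings, adult tail-tip fibroblasts in culture and whole embryos at E13.5, all labelled strain C57BL/6J. Lsh-/- mice carry a deletion in the helicase gene Hells, and the fibroblasts of both genotypes had been transformed with SV40. Each of the 4 groups was 1 library, so no difference below has a replicate check and no p-value is given. The control libraries are labelled WT, although the study's account of its cells also describes heterozygous controls.

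LINE-1 elements carry their own promoter in the 5′ UTR and encode proteins that reverse transcribe the element's RNA back into the genome. Most copies are truncated at the 5′ end and have lost that promoter, so RNA over them can also come from a gene or another repeat whose transcript runs through them. L1_Mur and L1_Rod are older than the L1Md subfamilies that are still active in mice, and their copies have diverged enough for many short reads to map to only 1 of them. Lsh is a chromatin remodelling helicase required for normal DNA methylation, a mark placed mainly on the dinucleotide CpG.

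The loci were longer and poorer in CpG than LINE loci as a whole. Their median width was 455 bp against 307 bp, they held a median of 0.34 CpG per 100 bases against 0.53, and their median GC content was 35.4% against 40.9%. The Lx to Lx6 subfamilies had a median of 0.42 CpG per 100 bases and the L1Md_F group 0.75. The methylation-sensitive site CCGG was present in 9.26% of the L1_Mur and L1_Rod loci, in 19.1% of all LINE loci and in 68.3% of the L1Md_F group. The polyadenylation signal AATAAA lay in the last 100 bases, read in the element's own sense, of 21.1% of these loci at least 100 bases long, against 27.3% of all LINE loci.

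The 30 bases richest in CpG are shown for 7 loci, 4 that were much higher in an Lsh-/- library, 2 abundant ones and 1 lower in embryos. The 2 abundant ones are marked little moved because their log2 fold changes were within 1 of 0 in both pairs. In fibroblasts they were still -0.72 in Serinc1 and 0.35 in Gpkow, and the locus nearest Dio3 was at -0.71. They are from mm9, in the element's own sense, with each CpG in capitals.
L1_Mur1 near Zfp119a, chr17:56001924-56001953, minus strand, higher in fibroblasts: ttaatgaaaatgacacaacataccaaaaCG
L1_Mur1 nearest Edem1, chr6:109655479-109655508, plus strand, in Lsh-/- only: aaacagagaattcacaatagaggCGcctCG
L1_Mur1 nearest Skint5, chr4:113738917-113738946, minus strand, in Lsh-/- only: ctccatatcctgatccattctagaggacCG
L1_Mur3 nearest Olfr58, chr9:19556522-19556551, minus strand, in Lsh-/- only: catcacttcaCGttaaaataacaggaaaCG
L1_Mur2 in Serinc1, chr10:57240003-57240032, plus strand, little moved: aaaggaaaaatccaccaaggtaaCGcttCG
L1_Mur3 in Gpkow, chrX:7286923-7286952, minus strand, little moved: tattaaatagacacactgagcatttcctCG
L1_Mur2 nearest Dio3, chr12:111554176-111554205, plus strand, lower in embryos: ctacaCGactctctgagcttCGccatgcCG
Even these richest windows held only 1 to 3 CpG. The whole elements held 5 near Zfp119a, 8 nearest Edem1, 5 nearest Skint5, 6 nearest Olfr58, 4 in Serinc1, 1 in Gpkow and 22 nearest Dio3. In fibroblasts the median was 0.31 CpG per 100 bases for those with a log2 fold change above 5, 0.42 for those within 1 of 0 and 0.39 for those below -1.

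The 4 libraries held 19216257 to 33904311 counts over the 6 tables of each sample. Intervals over exons 11 and 12 of the targeted gene Hells had 937 and 0 counts in WT and Lsh-/- fibroblasts, and 427 and 0 in the embryos. Its exons other than 11 to 13 had 5784 and 6132, and 2187 and 2014, so that in both Lsh-/- libraries the rest of the gene was still read. The fibroblast libraries differed in sex: Xist exons held 16828 counts in WT and 53 in Lsh-/-, and chromosome Y intervals held 12 and 5402. Genotype and sex cannot be told apart for loci on X and Y in that pair. Of 9 fibroblast markers, 7 were covered and all 7 were read in every library, with summed scaled counts of 161783 in WT and 126396 in Lsh-/- fibroblasts. Most of that sum was Vim, with 110360 and 73319 unscaled counts. In that pair 4 of the 7 were lower in Lsh-/-, while Col3a1 (4188 and 9082), Fn1 (19418 and 27930) and Pdgfrb (1834 and 3331) were higher. The 2 blood markers covered in fibroblasts held 0 counts in WT and 4 in Lsh-/-. There the summed scaled counts were 2.03 and 44.3 for the 2 liver markers covered, almost all from Afp, 1.02 and 48.2 for the 2 muscle markers, and 864 and 403 for the 2 neural ones, almost all from Tubb3. Their part in the fibroblast values below was not tested. In the embryos all 3 blood markers (Hba-a1, Hbb-b1, Hbb-y) and all 3 liver markers (Afp, Alb, Apoa1) were lower in Lsh-/-, with summed scaled counts of 207 against 18.3 and 3106 against 383. The 2 muscle markers covered were at 4164 and 4478 and the 3 neural ones at 936 and 733. Their part in the embryo values below was not tested, and in whole tissue fewer cells of a type and less RNA per cell cannot be told apart.

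Most L1_Mur and L1_Rod loci were barely read. In fibroblasts 5098 loci had a read, with a median of 2 counts over both libraries, and 713 (14.0%) reached the 10 counts set for a fold change. In embryos 5346 had a read, with a median of 4, and 1192 (22.3%) reached it. Summed, the loci had 18242 and 20874 counts in WT and Lsh-/- fibroblasts, or 3.82% and 4.58% of LINE counts, and 35066 and 30743 in the embryos, or 4.10% and 3.80%. After scaling, the sum was higher by 0.15 on the log2 scale in Lsh-/- fibroblasts and lower by 0.14 in Lsh-/- embryos. A single locus on the X chromosome, described below, carried much of the embryo value, which was -0.03 without it, while the fibroblast value was 0.22. The scaled level per kb of element was 5.65 in WT and 6.26 in Lsh-/- fibroblasts, below the 7.72 and 7.13 of all LINE loci. In the embryos it was 9.67 and 8.80, against 11.9 and 11.7.

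Fold changes are Lsh-/- over WT, and a locus is called above 1 or below -1 on the log2 scale. In fibroblasts 206 of the 713 loci (28.9%, 95% Wilson interval 25.7 to 32.3) were above 1, against a background of 24.1% of all LINE loci, and 130 (18.2%) were below -1, against 18.2%. The median was 0.10, with an interval over loci of -0.05 to 0.27, and 0.09 for all LINE loci. In embryos 280 of 1192 (23.5%, 21.2 to 26.0) were above 1, against 21.3%, and 256 (21.5%) were below -1, against 20.7%. The embryo median was 0.05, against 0.04. Scaling by the total of the 6 tables changed the fibroblast split to 44.2% above 1 and 8.56% below -1, with 41.6% and 8.69% for all LINE loci, whose median it raised by 0.67. The background lay below the interval for loci above 1 in fibroblasts and inside it for the other 3 shares, with loci taken as independent, which neighbours are not. The 2 sets also differ in place: in fibroblasts 31.7% of the tested loci lay outside genes, against 21.0% of all LINE loci. In exons it was 6.31% against 12.5%. The part of this in the share above 1 was not tested. Many calls rest on few reads: the 95% counting interval of the ratio left out 1 for 164 of the 206 fibroblast loci above 1 and for 70 of the 130 below -1. In the embryos it did so for 164 of 280 and 177 of 256. Intervals cover counting error only.

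**Figure D1:**
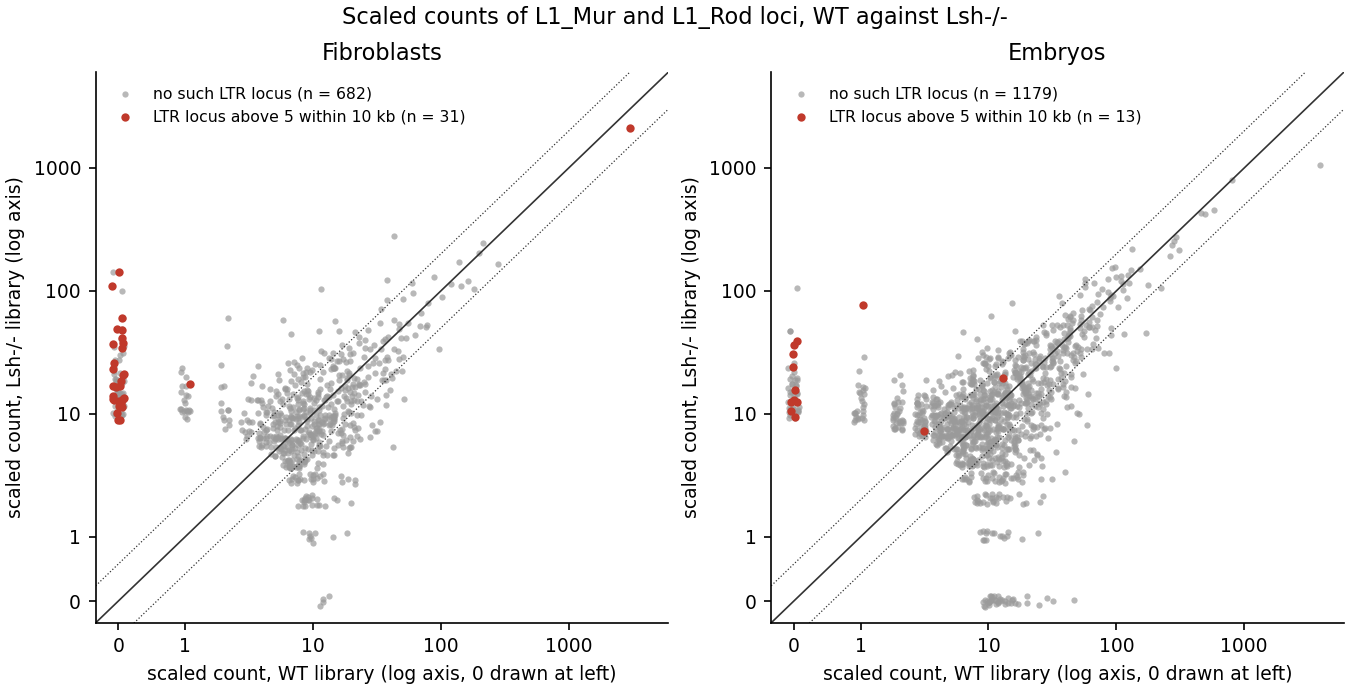
Scaled read counts of each L1_Mur or L1_Rod locus with at least 10 counts in the pair, WT on the horizontal and Lsh-/- on the vertical log axis, with 0 drawn apart at the left or bottom and points spread slightly. The solid line is equality, the dotted lines are 2-fold either way, and red points have an LTR locus above 5 within 10 kb. In fibroblasts 91 loci stand at 0 in WT and 4 at 0 in Lsh-/-, and in embryos 50 and 39.

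The fibroblast pair differed most in loci read in only 1 of its libraries. There were 91 loci (12.8% of those tested) with at least 10 counts in Lsh-/- and none in WT, against 8.60% of all LINE loci, and 4 (0.56%) the other way round, against 1.03%. Such a locus passes a log2 fold change of 5 by construction, and these 91 were all of the loci above 5, where the background was 8.74%. Of L1Md_F loci 26.7% were above 5 and of Lx to Lx6 loci 15.4%, both higher than the L1_Mur and L1_Rod share. Below -5 the same 4 loci stood beside a background of 1.04%. The 91 held 10 to 148 counts, with a median of 17, and lay in 64 clusters of loci within 50 kb of each other. With 3 counts taken as the most a WT count of 0 could hide, 3 of them were at least 32-fold higher and 67 at least 4-fold. In embryos the directions were nearly even, with 50 loci (4.19%, against 3.06%) read in Lsh-/- only and 39 (3.27%, against 2.89%) in WT only. There 51 loci (4.28%) were above 5, against 3.09% of all LINE loci, and 39 below -5, against 2.89%. Above 5 in embryos were also 6.85% of L1Md_F loci and 4.46% of Lx to Lx6 loci.

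For loci above 1 the intervals of the 4 subfamilies overlapped. In fibroblasts 56 of 159 L1_Mur2 loci (35.2%) were above 1, 21 of 70 L1_Mur1 (30%), 42 of 156 L1_Rod (26.9%) and 87 of 328 L1_Mur3 (26.5%). Loci above 5 made up 20.1% of L1_Mur2, 14.3% of L1_Mur1, 10.7% of L1_Mur3 and 8.97% of L1_Rod. The interval of L1_Mur2 (14.6 to 27.0) lay just above those of L1_Mur3 (7.77 to 14.5) and L1_Rod (5.42 to 14.5), again with loci taken as independent. The median fold change on the log2 scale was 0.37 for L1_Mur1, 0.22 for L1_Mur2, 0.06 for L1_Mur3 and 0.04 for L1_Rod. In embryos the shares above 1 lay between 19.8% for L1_Rod and 25.4% for L1_Mur3, and 4 of 257 L1_Rod loci were above 5. Among LINE-1 subfamilies of other ages, 43.5% of L1Md_F loci and 31.3% of Lx to Lx6 loci were above 1 in fibroblasts, and 28.8% and 23.9% in embryos. No test of these differences was possible with 1 library per group.

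**Figure D2:**
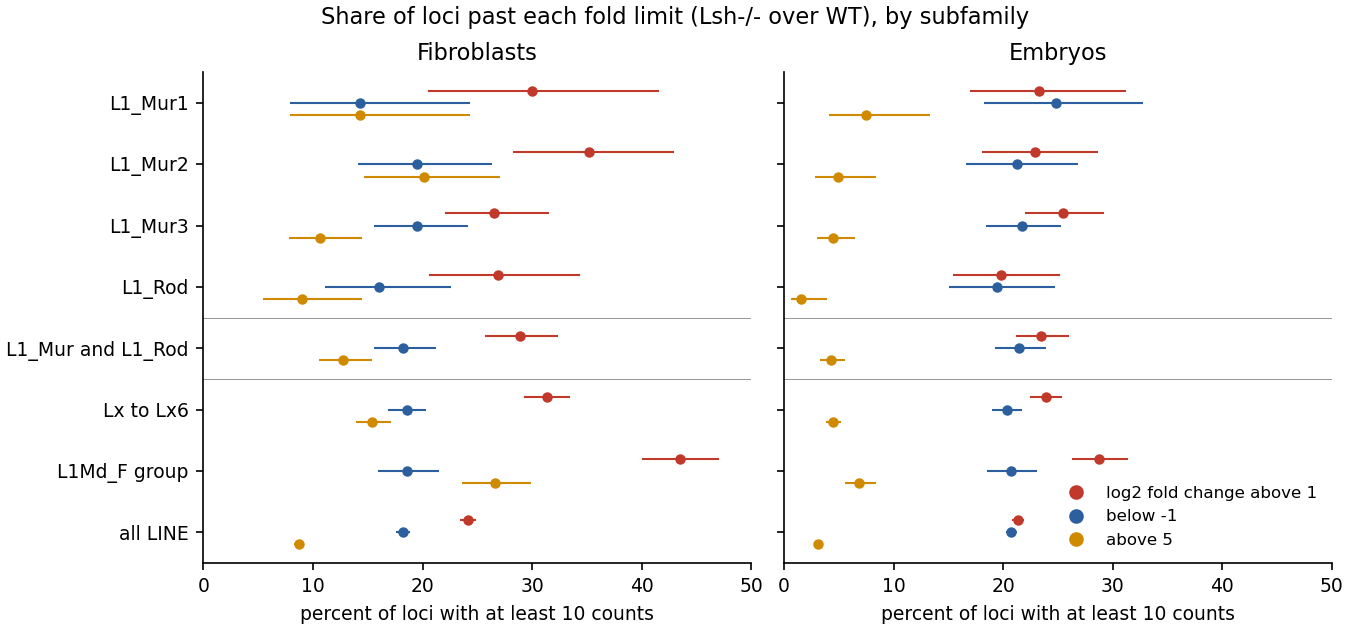
Percent of loci with at least 10 counts whose log2 fold change (Lsh-/- over WT) was above 1, below -1 or above 5, for each subfamily, for all L1_Mur and L1_Rod loci and for other LINE groups. Bars are 95% Wilson intervals over loci. In fibroblasts L1_Mur2 is the highest of the 4 subfamilies at 35.2% above 1, and the L1Md_F group reaches 43.5%.

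The fibroblast shares above 1 and below -1 also differed by place in the genome. Among loci outside annotated genes, 127 of 226 (56.2%) were above 1 and 18 below -1, whereas in introns the balance turned. Of 127 loci in an intron in the gene's own sense, 15 (11.8%) were above 1 and 32 below -1, and of 313 in antisense 53 (16.9%) and 76. Among 45 loci that overlapped an exon, 9 were above 1 and 4 below -1. All LINE loci showed the same split, with 53.2% of those outside genes above 1. No WT read was found for 81 of the 226 loci outside genes (35.8%), for 9 of the 440 in introns and for 0 of the 45 in exons, a share of up to 7.87% by its Wilson interval. For all LINE loci it was 33.9% outside genes, 1.99% in introns in sense, 1.77% in antisense and 1.82% in exons. A locus unread in WT passes the count minimum through Lsh-/- reads alone, and is then above 1 by construction. The 127 loci above 1 outside genes therefore include these 81. How far the minimum sets the contrast with introns was not tested, here or for all LINE loci.

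The share without a WT count in fibroblasts rose with distance from genes. Within 10 kb of the nearest protein-coding gene, 6 of 101 fibroblast loci (5.94%) had no WT count, between 10 and 100 kb 27 of 73 (37.0%), and beyond 100 kb 48 of 52 (92.3%). The 52 distant loci together held 23 counts in WT and 1416 in Lsh-/-, and 51 of them were above 1. A locus unread in WT reaches the minimum of 10 counts through Lsh-/- reads alone, as those 48 did. Where WT is hardly read, a high share is therefore largely set by that minimum. Among all LINE loci the shares without a WT count were 7.62%, 38.5% and 82.0% over the same distances. In embryos it was 10 of 169 (5.92%), 18 of 95 (18.9%) and 3 of 21 (14.3%, interval 4.98 to 34.6), against 4.43%, 11.7% and 24.4% of all LINE loci. With 21 distant loci the order of the last steps could not be told. Of the 91 fibroblast loci read in Lsh-/- only, 6 were on X and 2 on Y, where the sexes of the libraries differ, and 83 of the 674 tested on autosomes and unplaced sequence were above 5.

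**Figure D3:**
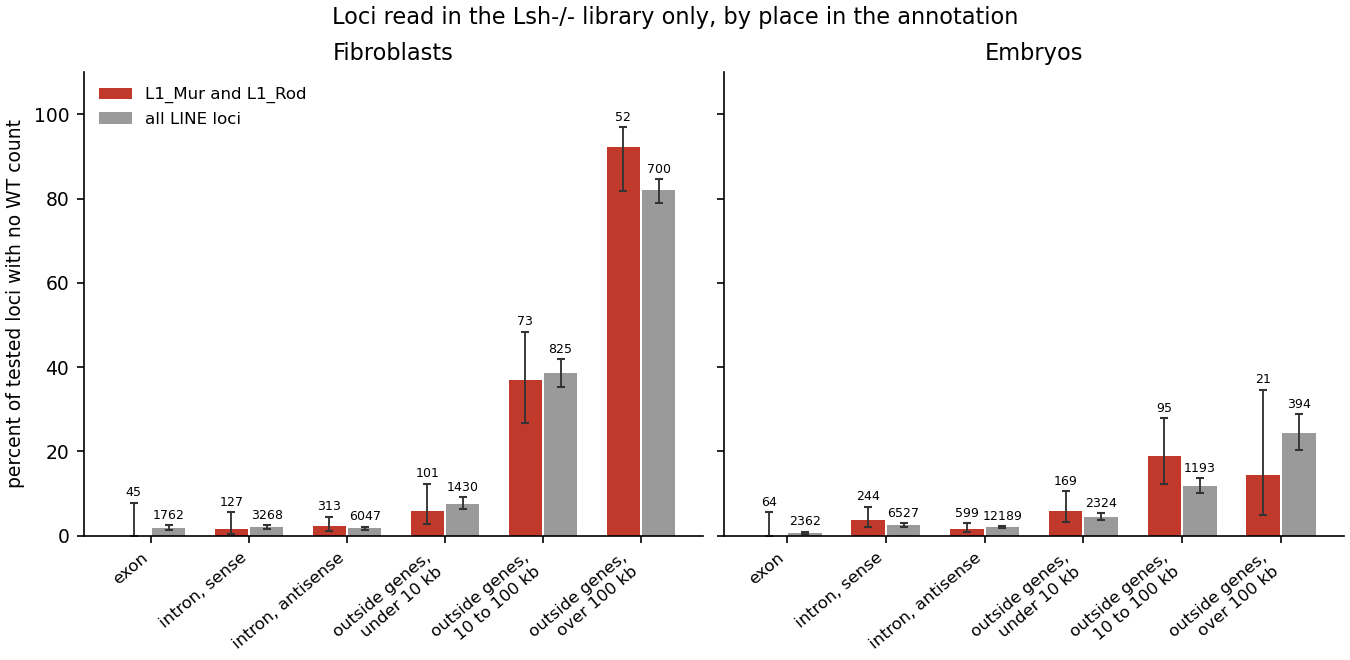
Percent of loci with at least 10 counts that had no WT count, by overlap with annotated genes and, outside genes, by distance to the nearest protein-coding gene. Loci with no WT count reach 10 counts through Lsh-/- reads alone. Red bars are L1_Mur and L1_Rod loci and grey bars all LINE loci, error bars are 95% Wilson intervals over loci, and the number above each bar is the number of loci. In fibroblasts the share climbs from 5.94% within 10 kb to 92.3% beyond 100 kb, and in embryos the red bars stay below 20%.

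LTR retrotransposons, among them the IAP elements, were above 5 more often than LINE loci in the same libraries, with 60.3% of tested LTR loci above 5 in fibroblasts and 26.5% in embryos. The same minimum of 10 counts was used, so an LTR locus unread in WT is likewise above 5 by construction. How far this sets those shares and the neighbour counts below was not tested. Of the 91 fibroblast L1_Mur and L1_Rod loci above 5, 29 (31.9%) had an LTR locus above 5 within 10 kb, against 29.6% of all LINE loci above 5. Only 1 of the 507 tested loci that were not above 1 had one. For 24 of the 29 the LTR was an IAP, 10 lay within 1 kb and 9 were on the same strand as the LINE-1. With the distance widened, 43 of the 91 (47.3%) had one within 50 kb and 51 (56.0%) within 100 kb, against 4 and 18 of the 377 loci within 1 of 0. In embryos 11 of 51 loci above 5 (21.6%) had one within 10 kb, against 87 of 771 (11.3%) among all LINE loci above 5. Reads of 1 transcript that crosses both repeats are counted in both tables, so neighbours are not independent measurements.

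**Figure D4:**
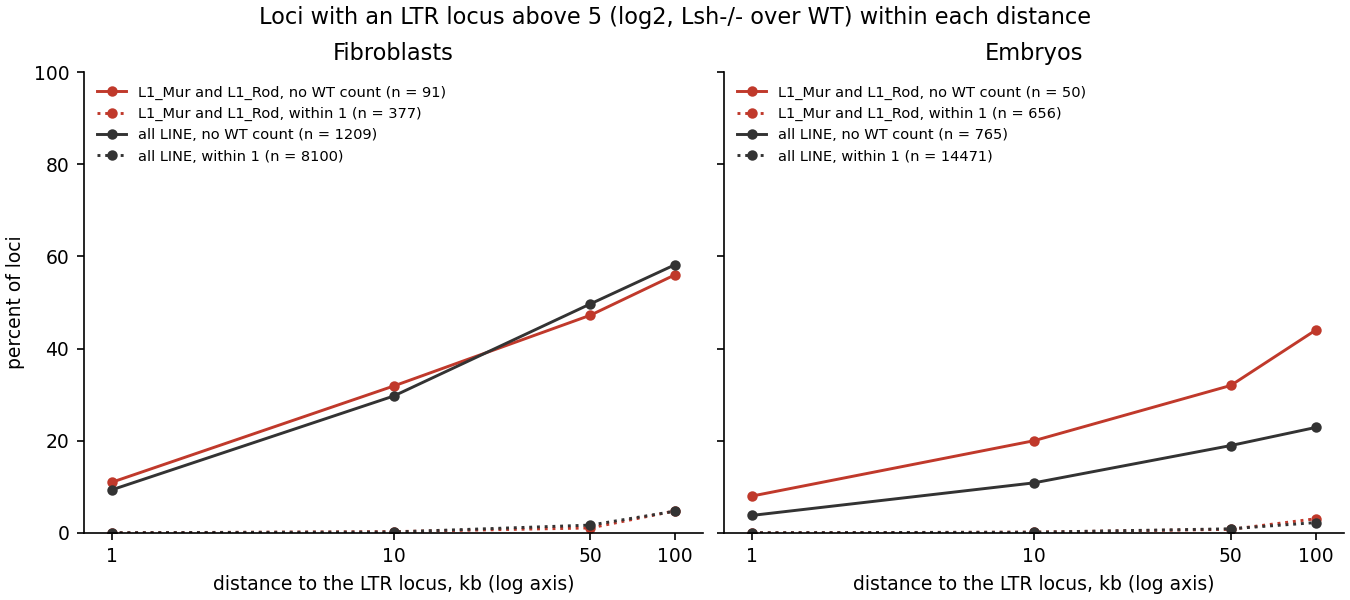
Percent of loci with an LTR locus above 5 (log2, Lsh-/- over WT) within 1, 10, 50 or 100 kb on a log axis. Solid lines are loci without a WT count and dotted lines loci whose own log2 fold change was within 1 of 0, red for L1_Mur and L1_Rod and black for all LINE loci. In fibroblasts the red solid line runs from 11% within 1 kb to 56.0% within 100 kb, close to the black one.

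Outside genes, 98 of the 197 fibroblast loci with no such LTR locus within 10 kb were above 1, 53 of them without a WT count, and 18 were below -1. In embryos the set chosen in the same way held 276 loci, with 65 above 1 and 72 below -1, and 23 above 5 and 10 below -5. Of all LINE loci outside genes, whatever their LTR neighbours, 53.2% in fibroblasts and 28.5% in embryos were above 1, and 10.7% and 20.4% below -1. Loci unread in WT are above 1 by construction here too, and their part in these shares was not tested. The flanking intervals were also raised beside the raised elements. They were taken as 1 kb wide, from 10 to 11 kb on each side, although the study describes intervals of the element's own width. This was read from the counts: each of 98 well read repeats at that distance in fibroblasts, and of 195 in embryos, held no more counts than the interval over it. Of 182 flanks of the 91 loci, 53 had at least 10 counts and 52 of these were above 1, with a median of 7.31 on the log2 scale. A flank unread in WT also reaches 10 counts through Lsh-/- reads alone and is then above 5 by construction. Of the 53 flanks, 44 were above 5, and how far the minimum sets their share and median was not tested. Among all LINE loci above 5 it was 654 of 703 flanks (93.0%), with a median of 7.38. Beside the 377 loci within 1 of 0, 46 of 432 flanks (10.6%) were above 1, against 8.42% for all LINE loci. In embryos 25 of 46 flanks of the loci above 5 (54.3%) were above 1, against 220 of 638 (34.5%). Over all listed L1_Mur and L1_Rod loci, 23.2% of upstream flanks were above 1 in fibroblasts, where the background was 18.6%, and 25.3% of downstream flanks, against 19%. In embryos it was 15% and 16.5%, against 14.2% and 14.4%. Upstream here means the side of lower coordinates.

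The most abundant locus raised in fibroblasts was an L1_Mur1 of 2246 bp at chr17:56000001-56002246, 2222 bp from Zfp119a, a zinc finger protein gene. In WT and Lsh-/- fibroblasts it had 39 and 299 counts, and 133 and 196 in the embryos, the order in which counts are given throughout. The fold change was 2.89 on the log2 scale in fibroblasts, a ratio with a counting interval of 5.31 to 10.6, and 0.61 in embryos. Both of its flanks were almost unread, with 1 count at most in fibroblasts. An L1_Mur3 at chr1:153088963-153090282, outside genes, held 11 and 96 counts in fibroblasts, a log2 fold change of 3.06, and 70 and 46 in embryos, where the order was the opposite. An L1_Mur3 of 4169 bp in the sense of an intron of Rap1gds1, a gene for an exchange factor of small GTPases, held 39 and 136 in fibroblasts and 84 and 121 in embryos. An L1_Mur1 that lies 2662 bp from the collagen gene Col5a2 held 34 and 77 in fibroblasts but 278 and 206 in embryos. These 4 were read in both WT libraries, unlike the next group.

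Among loci with no WT count, the highest was the L1_Mur1 at chr6:109654724-109656264, in a stretch with no protein-coding gene for 845373 bp. It had 0 counts in WT and 148 in Lsh-/- fibroblasts, at least 47.8-fold higher, and 0 and 19 in the embryos, at least 6.58-fold. An IAPLTR1a_Mm locus 20 bp away held 1 and 64 counts in fibroblasts, and an overlapping Lx3_Mus fragment 0 and 42. The L1_Mur1 at chr4:113737680-113739072, 65571 bp from Skint5, held 0 and 131 in fibroblasts, at least 42.3-fold higher, and 0 and 15 in embryos. No raised LTR lay within 10 kb of it, and its upstream flank held 0 and 43 in fibroblasts and 0 and 11 in embryos. The L1_Mur3 at chr10:104246837-104247340 held 0 and 102 in fibroblasts, at least 32.9-fold higher, with an IAPLTR1_Mm locus of 2 and 582 counts 9166 bp away. It had no read in either embryo library.

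In embryos the largest locus without a WT count was the L1_Mur3 at chr9:19554548-19556566, 28160 bp from the olfactory receptor gene Olfr58. It held 0 and 96 counts in embryos, at least 33.2-fold higher, and 0 and 18 in fibroblasts, and its flanks held 0 and 37 upstream and 0 and 22 downstream in the embryos. The L1_Mur3 in an intron of Mrgprx2, a receptor gene, held 1 and 81 in embryos and 0 and 12 in fibroblasts. An IAPLTR1_Mm locus 47 bp away was at 0 and 111 in embryos and 0 and 28 in fibroblasts, so that both repeats were nearly unread in WT of either kind. The L1_Mur1 at chr7:69641177-69644346 held 0 and 50 in embryos, at least 17.3-fold higher, and 0 and 8 in fibroblasts. Other loci higher in embryos were already read in WT. These included an L1_Mur3 in an exon of the alcohol dehydrogenase gene Adh7 with 17 and 81 counts, a log2 fold change of 2.30, and an L1_Mur2 in the zinc finger gene Zfp945 with 39 and 79. Adh7 held 64 and 98 in fibroblasts, and the Zfp945 locus 0 and 12. The L1_Mur3 at chr18:32073140-32073954, 1582 bp from Sft2d3, held 38 and 91 in embryos and 17 and 34 in fibroblasts.

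Loci lower in Lsh-/- fibroblasts lay mainly in genes, 108 of the 130 in introns (83.1%) and 4 in exons (3.08%). Of all LINE loci below -1, 80.2% were in introns and 7.45% in exons, and of all tested L1_Mur and L1_Rod loci 61.7% were in introns. The largest was an L1_Mur1 in an intron of Adam9, a membrane metalloprotease gene, with 90 and 38 counts, a log2 fold change of -1.29, against 105 and 148 in embryos. An L1_Rod in an exon of Zfp91 held 51 and 22, and an L1_Mur3 in Masp1, which encodes a protease of the complement lectin pathway, 50 and 12. In the embryos their Lsh-/- counts were the higher, at 48 and 65 and at 9 and 12. An L1_Rod in Fam185a likewise held 48 and 24 in fibroblasts and 49 and 70 in embryos. The 3 loci most read among those below -5 were L1_Mur3 copies in introns of Lims1, Ash1l and Rtn4, with 13, 12 and 11 counts in WT and 0 in Lsh-/-. Those counts are at least 4.47-fold, 4.13-fold and 3.79-fold lower.

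In embryos the locus with the most counts was among those below -1. This L1_Mur1 of 5949 bp at chrX:76435694-76441642 held 3689 counts in WT and 1090 in Lsh-/-, a log2 fold change of -1.70, and 2814 and 2381 in fibroblasts, at -0.29. It made up 10.5% of all L1_Mur and L1_Rod counts in WT embryos and 15.4% in WT fibroblasts. It overlaps Rps24-ps3, a processed pseudogene of a ribosomal protein gene, and whether reads of similar copies enter its counts was not tested. The L1_Mur2 at chr12:111553640-111555578, 34332 bp from the imprinted thyroid hormone deiodinase gene Dio3, held 161 and 49 in embryos, at -1.66, and 168 and 106 in fibroblasts, at -0.71. An L1_Mur1 that lies 3267 bp from the zinc finger gene Zfp738 held 106 and 23 in embryos, at -2.14, but 35 and 45 in fibroblasts. An L1_Mur1 at chr14:51499478-51499885 held 111 and 41 in embryos and 0 and 2 in fibroblasts. A short L1_Rod in an exon of Csf2ra, a cytokine receptor gene, held 95 and 33 in embryos and 6 and 0 in fibroblasts, and an L1_Rod 4426 bp from that gene held 31 and 0 in embryos, at least 9.95-fold lower. An L1_Mur1 in Gm3248 held 49 and 0 in embryos, at least 15.7-fold lower, and an L1_Rod in an exon of Brcc3 34 and 0, at least 10.9-fold lower. In fibroblasts the Lsh-/- counts of these 2 were the higher, with 0 and 9 at Gm3248, under the minimum for a fold change, and 15 and 31 at Brcc3. The Brcc3 locus is on X, where genotype and sex cannot be told apart in the fibroblast pair.

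The loci named next were the most read among those within 1 of 0 in a pair, and were chosen for that. An L1_Mur2 in an intron of Serinc1 held 281 and 176 counts in fibroblasts, a log2 fold change of -0.72 and a ratio with a counting interval of 0.499 to 0.735, and 779 and 749 in embryos, at 0.00. An L1_Mur3 in an exon of Gpkow held 204 and 269, at 0.35, and 484 and 399, at -0.22. An L1_Mur2 in an exon of the lincRNA Gm6634 held 184 and 199 in fibroblasts, at 0.07, and 62 and 110 in embryos, at 0.88. The gene 4933407H18Rik holds 4 tested L1_Rod loci, which together had 435 and 364 counts in fibroblasts and 1574 and 1324 in embryos, and all 4 were within 1 of 0 in both.

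**Figure D5:**
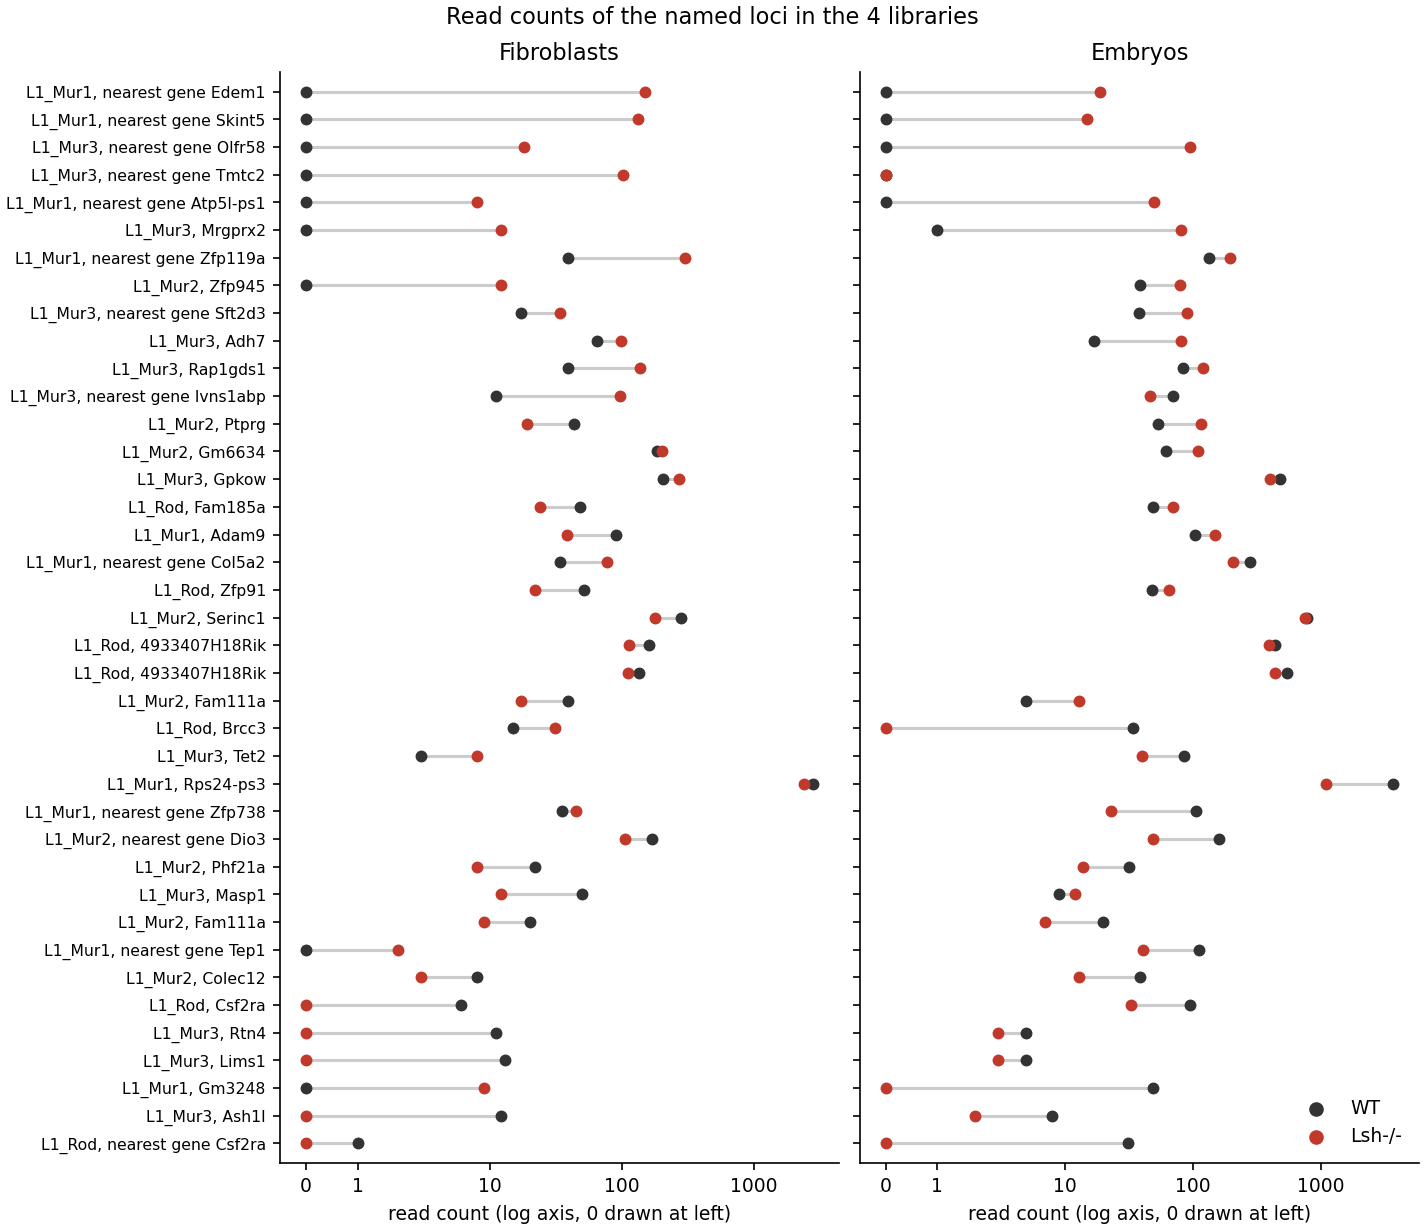
Read counts, unscaled and on a log axis with 0 drawn apart, of the named loci in the 4 libraries, black for WT and red for Lsh-/-, ordered by the ratio summed over both pairs. Labels give the subfamily and the gene overlapped or nearest. The loci at the top, such as the L1_Mur1 nearest Edem1 (0 and 148 in fibroblasts, 0 and 19 in embryos), were unread in WT of either kind.

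Several genes held loci on the same side of the limit. All 3 L1_Mur or L1_Rod loci tested in Zfp945 were above 1 in fibroblasts, from 1 count in WT to 35 in Lsh-/- in sum, and 3 of 4 in the lymphatic development gene Ccbe1 were below -1, from 50 to 13. In embryos 4 of 4 loci in 3110053B16Rik were below -1, from 87 to 21, and 3 of 3 in Creb1, which encodes a cyclic AMP responsive transcription factor, from 58 to 18. In Tbc1d23, 3 of 4 were above 1, from 9 to 38. These genes were picked for the number of tested loci and their direction after the values were seen, and no share over all such genes was taken. In fibroblasts 1 of 3 loci in 3110053B16Rik was above 1 and 0 below -1, from 35 to 57. In embryos 1 of 4 in Zfp945 was above 1. Other genes were mixed, such as Uty in embryos, with 3 of 7 above 1 and 2 below -1. Loci within 50 kb of each other formed 476 clusters in fibroblasts and 760 in embryos, and the 206 fibroblast loci above 1 lay in 161 of them.

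Both pairs tested 525 of the loci. Of these, 110 were above 1 in fibroblasts and 83 in embryos, and 24 in both, which is 21.8% of the first list and 28.9% of the second. Of all 525, 15.8% were above 1 in embryos and 21.0% in fibroblasts. Below -1 there were 92 and 100, with 15 in both, or 16.3% and 15%, against 19.0% of all 525 in embryos and 17.5% in fibroblasts. Above 5, 9 loci were shared, of 18 in fibroblasts and 11 in embryos, where 2.10% of the 525 were above 5 in embryos and 3.43% in fibroblasts. These 9 were the 4 already described, nearest Edem1, Skint5 and Olfr58 and in Mrgprx2, and 5 smaller ones with 11 to 26 Lsh-/- counts. Each of the 9 had no WT count, except that of Mrgprx2, which had 1 in embryos. A locus unread in WT enters the 525 only through Lsh-/- reads in both pairs, and is then above 5 by construction. The overlap above 5 therefore cannot measure how far the tissues agree, and these 9 are also among the 24 above 1 in both. Another 25 loci were above 1 in fibroblasts and below -1 in embryos, and 11 the reverse. Across the 525 loci the fold changes had a Pearson correlation of 0.30 and a Spearman correlation of 0.02, as a description, since loci share libraries and many neighbours share transcripts. The 9 loci above 5 in both enter the Pearson value with extreme fold changes, so it cannot measure agreement between the tissues either. The loci below -1 in both with the most reads were L1_Mur2 copies in Phf21a, with 22 and 8 counts in fibroblasts and 32 and 14 in embryos, in Fam111a, with 20 and 9 and then 20 and 7, and in Colec12, with 8 and 3 and then 39 and 13.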

How the data were processed

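The authors deposited, for each of the 4 samples, 6 tables of raw read counts, not normalized, over repeat loci and the intervals beside them. They made paired-end, strand-specific dUTP libraries, mapped the reads to mm9 with TopHat 1.4.0, kept unique positions and joined them to the repeatmasker annotation. Loci without a read are not listed and were given a count of 0. The tables do not give the strand of a read, so a gene and an antisense element cannot be told apart, and whether both mates of a pair were counted is not stated.

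Counts were scaled within each pair by TMM (edgeR 4.0.16, R 4.3.3) over the flanking intervals of LINE-1 loci, with effective sizes of 19481559 and 20118423 in fibroblasts and 27051956 and 26054891 in embryos. Fold changes used a prior count of 0.125 and were computed only where a pair held 10 counts or more at a locus. A count of 0 was bounded by 3 counts in that library. Ratios of named loci have exact Clopper-Pearson intervals and shares 95% Wilson intervals. Table starts were read as 0-based, as 98.0% of 859 long plus-strand IAPLTR loci then began with TG. Genes came from GENCODE vM1 on the same build, and 13 loci on unplaced sequence were not annotated. Python 3.11.15, pysam 0.24.0 and Matplotlib 3.10.9 were used, and the scaling was tested on simulated data. A simulated size ratio of 2 was recovered as 1.92. Of 200 loci changed 4-fold, 99.5% in fibroblasts and 95% in embryos passed the 2-fold limit. So did 18.0% and 16.2% of the unchanged loci, in either direction, from counting error and scaling alone.

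Named loci follow a rule on counts: for each tissue the 6 most read loci above 1, 6 below -1, 4 within 1 of 0, 3 above 5 and 3 below -5, and 3 past 1 in each direction in both tissues. The members, gene lists and this rule were chosen with earlier results of these data known. Distances other than 10 kb and the bins of gene distance were added after the values were seen. Alternatives covered the prior count, the floor, the scaling, the count minimum, chromosomes X and Y, clusters and exons.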

Additional observations from a re-analysis of the deposited data

Results flagged for a closer look

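Among the named loci, 3 passed the 2-fold limit in opposite directions in the fibroblast and embryo pairs. Each group was 1 library, so the difference between the pairs was not tested. The L1_Mur2 in an exon of the receptor phosphatase gene Ptprg had 43 and 19 counts in WT and Lsh-/- fibroblasts and 54 and 115 in the embryos, with log2 fold changes of -1.22 and 1.14 that differ by -2.36. The L1_Mur2 at chr19:12654396-12655352, in an intron of Fam111a, held 39 and 17 in fibroblasts and 5 and 13 in embryos, at -1.24 and 1.41, which differ by -2.65. The L1_Mur3 in an intron of Tet2, whose product oxidises methylated cytosine, held 3 and 8 in fibroblasts and 86 and 40 in embryos, at 1.33 and -1.05, which differ by 2.38. The counting intervals of the smaller pairs, at Fam111a in embryos (ratio 0.90 to 9.67) and at Tet2 in fibroblasts (0.62 to 15.1), include 1.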

How the results depend on the processing

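No paired analysis was possible because each group was 1 library and no test was made. Of the values under other settings, 74 of 116 for summaries and 279 of 280 for named loci stayed within the interval of the main value, and no called named locus changed sign. For a locus with a count of 0 that interval is open on 1 side, so the check is weak there. Nearest Edem1 the fibroblast value fell from 10.2 to 7.20 with a prior count of 1 and to 5.58 with the floor, still inside. Named loci were not run under the total of the 6 tables. In fibroblasts the L1_Rod in Fam185a, at -1.04, was no longer below -1 with DESeq2 size factors (-0.996) or the LINE table total (-0.93), and the loci near Sft2d3 (1.06) and in Brcc3 (1.11) were above 1 with the LINE table total, the latter also with DESeq2 size factors (1.04). With a prior count of 1, 2.38% of fibroblast loci and 0.50% of embryo loci were above 5, and with 0 counts raised to 3 it was 0.42% and 0.17%, since that limit then needs more reads in Lsh-/-. Scaling by the total of the 6 tables moved the median of all fibroblast LINE loci by 0.67 on the log2 scale, and that of the L1_Mur and L1_Rod loci to 0.77, with 44.2% above 1 and 8.56% below -1. The median of all LINE loci was then 0.76. Without a count minimum the shares above 1, below -1 and above 5 were 39.2%, 40.3% and 6.90% in fibroblasts and 36.6%, 42.5% and 9.93% in embryos, with an embryo median of -0.23. With at least 50 counts they were 22.7%, 9.09% and 7.95% in fibroblasts and 7.28%, 13.1% and 1.46% in embryos, with an embryo median of -0.039. With 1 locus per 50 kb cluster, 18.8% of embryo loci were below -1. For flanks with at least 50 counts, the shares above 1 and below -1 were 11.3% and 3.85% upstream and 14.2% and 4.26% downstream in fibroblasts, where the downstream median was 0.11. In embryos they were 5.23% and 6.42% upstream, with a median of -0.024, and 5.29% and 5.62% downstream. A prior count of 1 gave embryo flanks 13.9% and 13.7% upstream and 15.4% and 13.7% downstream. DESeq2 size factors gave flank medians of 0.22 upstream and 0.21 downstream in fibroblasts and -0.050 and -0.079 in embryos, with 13.6% and 15.1% of embryo flanks above 1. The causes of these shifts were not tested, except where the construction gives them. Depth limits most loci, since 51.8% of those listed in fibroblasts and 33.9% in embryos held 1 or 2 counts.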
